A study of Homo sapiens with 4 samples.

Results

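RS4;11 and SEM are established human cell lines of B-cell precursor acute lymphoblastic leukaemia (ALL) that share the chromosome translocation t(4;11), and the RNA of each was compared with that of the other. Both were chosen by their label as carriers of the translocation and make up 2 of the 4 arrays of the study. The other 2 arrays hold NALM6 and REH, ALL lines of the same precursor B lineage that lack it. Those 2 lines enter below only as values set beside the first pair. All 4 lines were grown in RPMI medium with fetal bovine serum to a culture not yet confluent, and the labels name no drug or genetic change. Total RNA was profiled on an Affymetrix whole-transcript array. Each line is a single line with 1 array, so that no difference has a replicate check, no test was possible, and line, culture and array cannot be told apart. The study set lines with and without a rearranged KMT2A (MLL) gene side by side, and the question here is how far 2 lines with the same fusion differ in B-lineage stage, myeloid traits and signalling.

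The translocation t(4;11) joins KMT2A, which encodes a histone H3 lysine methyltransferase, to AFF1, which encodes a subunit of a transcription elongation complex, and the fusion keeps genes of blood progenitors active. B cells develop from progenitors in steps. An early progenitor switches on B-lineage transcription factors, a pro-B cell cuts and joins its immunoglobulin heavy chain gene with the RAG recombinase, and a pre-B cell shows that heavy chain at its surface with a surrogate light chain, as the pre-B receptor. Leukaemias with t(4;11) often keep an early B-lineage form and can carry myeloid markers, which is why both programmes are described here.

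Values are log2 expression, 1 value per gene and line, so that a difference of 1 is 2-fold. The first value given for a gene is always that of RS4;11, and those of the other lines follow by name. Of 18377 genes, 456 were at least 2-fold higher in RS4;11 (2.48% of all genes) and 646 in SEM (3.52%). At 4-fold, the counts were 138 (0.751%) and 248 (1.35%). The median difference over all genes, RS4;11 minus SEM, was 0.02, and the median size of a difference was 0.15. Where a gene had several probe sets, their differences varied with an SD of 0.262, which gives the scale of measuring error within an array but not of the spread between cultures. The 2 translocation lines differed in fewer genes at 2-fold (1102) than any other pair of the 4 lines (1442 to 2056), although these pairs share arrays. Values near 5 lie at the 25th percentile of the genes on each array (4.99 in RS4;11 and 4.97 in SEM) and have no detection call, so that folds against them are compressed, and this level is called the array floor below.

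**Figure D1:**
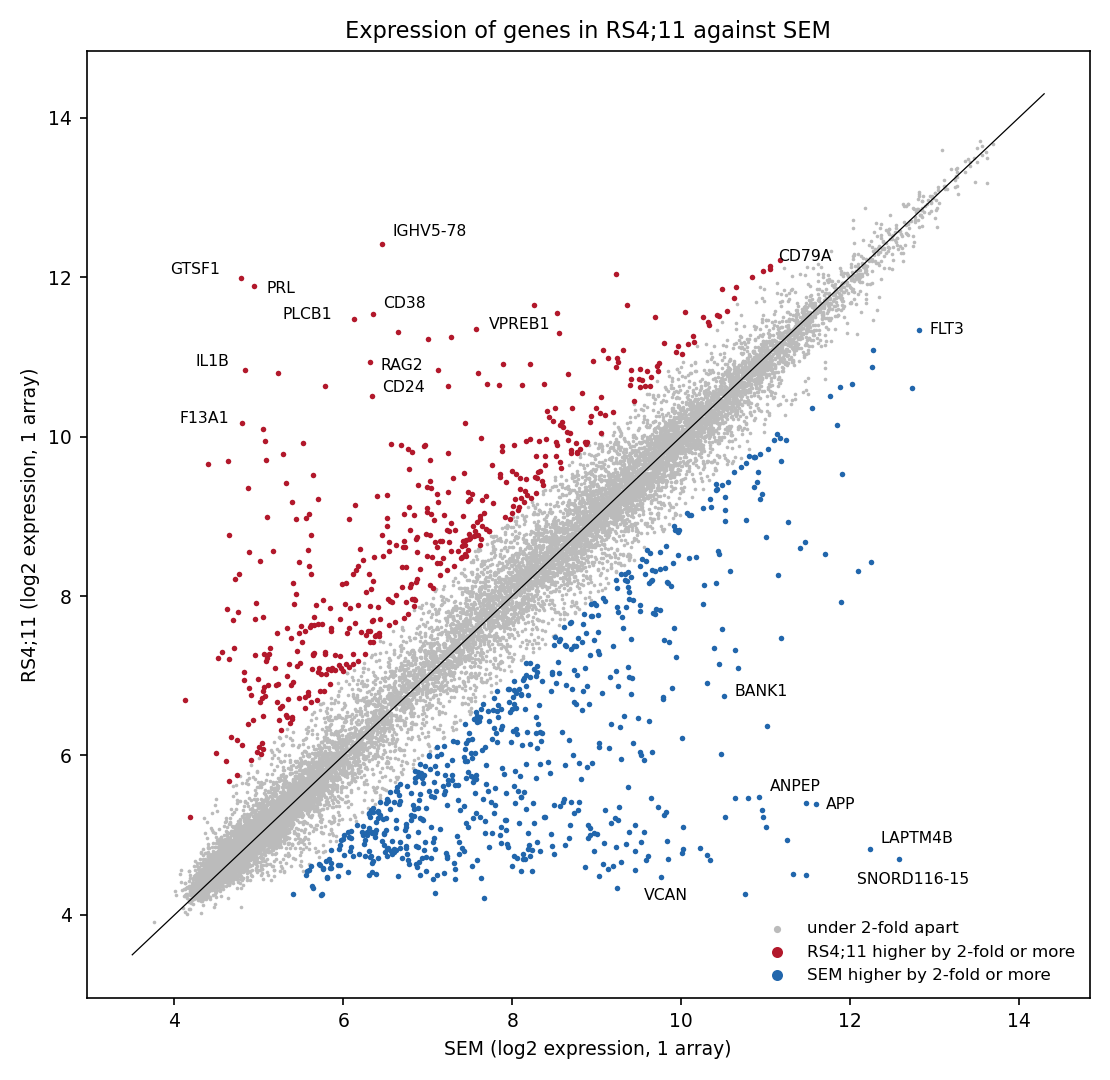
Log2 expression of 18377 genes in SEM (horizontal axis) and RS4;11 (vertical axis), with 1 array per line. Red and blue points are genes at least 2-fold higher in RS4;11 (456) and in SEM (646), and the line marks equal values. Most genes lie near the line, and the farthest points include CD38, RAG2 and IL1B on the RS4;11 side and LAPTM4B, APP and ANPEP on the SEM side.

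The fusion partners themselves were under 2-fold apart. The brighter KMT2A probe set stood at 11.12, with SEM at 10.61, NALM6 at 10.72 and REH at 11.01. AFF1 was at 11.69, with SEM at 10.89, NALM6 at 11.22 and REH at 11.30. By these 2 probe sets RS4;11 was the highest and SEM the lowest of the 4 lines, with differences of 0.50 for KMT2A and 0.80 for AFF1. Where the probes lie relative to the break points was not examined, so that fused and unfused transcripts were not told apart. Markers of precursor B cells were not uniform, and some were high in both lines. PAX5, the factor that fixes B-lineage identity, was at 11.73, with SEM at 11.90, NALM6 at 11.85 and REH at 11.61. CD22, a B-cell inhibitory receptor, was at 11.40, with SEM at 11.10, NALM6 at 11.54 and REH at 11.65. Other such markers, among them CD24, RAG2 and DNTT, were low in SEM and are described below. Both lines were low in MME (CD10), a marker of common ALL, with 5.54 against 5.34 in SEM, against 12.48 in NALM6 and 12.56 in REH. In CD34, the stem and progenitor cell antigen, values were 4.73 against 4.84 in SEM, and in MS4A1 (CD20), an antigen of later B cells, 4.45 against 5.05 in SEM.

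The B-lineage lists held 99 measured genes, of which 26 were at least 2-fold higher in RS4;11 and 5 in SEM, with a median difference of 0.32. All 5 measured chains of the pre-B receptor complex were among the 26, with a median difference of 2.36, beside 2.48% of all genes in that direction. In 15 of the 26 genes SEM lay at least 2-fold below each of the other 3 lines, those without the translocation included. The lists were drawn up with earlier results of these data known, so that their counts describe the lines and are no independent evidence of a direction.

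VPREB1, which with IGLL1 forms the surrogate light chain that stands in for a light chain before light chain genes are joined, was at 11.35, with SEM at 7.57, NALM6 at 10.86 and REH at 5.51. RS4;11 and NALM6 were high, and SEM and REH were low. IGLL1 (lambda5) was at 10.78, with SEM at 8.66, NALM6 at 10.70 and REH at 10.73, with SEM alone low. The gene shares sequence with the lambda light chain genes, so that its probe set may read those too. VPREB3, a relative of VPREB1, was at 9.71, with SEM at 7.03, NALM6 at 10.50 and REH at 11.47, again with SEM lowest. CD79B, the signalling chain called Ig-beta, was at 9.99, with SEM at 7.63, NALM6 at 10.87 and REH at 11.02, 5.12-fold higher in RS4;11 than in SEM. Its partner CD79A (Ig-alpha) differed least of the 5, with 12.10, with SEM at 11.05, NALM6 at 11.44 and REH at 12.35, and its difference of 1.05 lies just past 2-fold.

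The promoters of the 4 receptor chain genes with an entry are shown because these genes differed in the same direction. VPREB1, VPREB3 and IGLL1 lie on chromosome 22 and CD79A on chromosome 19. IGLL1 and VPREB3 belong to a stretch of 10 neighbouring genes above the median level, from IGLL1 to CABIN1. The median difference of the 10 was 0.63, with 8 of the 10 lower in SEM. The stretch was picked by these same differences and counts both genes in, so that its median and direction follow in part from that choice. For SEM the median difference of those 10 genes from NALM6 and REH was -0.28 and -0.73. The part of this neighbourhood in the values of IGLL1 and VPREB3 was not tested. Each sequence is the 250 bases before the RefSeq start, in GRCh38.p14, 5′ to 3′ on the gene's strand: CD79A at chr19:41877029-41877278 (plus strand), VPREB1 at chr22:22244536-22244785 (plus), VPREB3 at chr22:23754426-23754675 (minus) and IGLL1 at chr22:23580291-23580540 (minus). Capitals mark the E-box letters CAGGTG, which read CACCTG on the other strand, the kind of site that E proteins such as TCF3 bind, and the palindromic letters CCCNNGGG, the core of the site of EBF1, an early B-lineage factor.
CD79A: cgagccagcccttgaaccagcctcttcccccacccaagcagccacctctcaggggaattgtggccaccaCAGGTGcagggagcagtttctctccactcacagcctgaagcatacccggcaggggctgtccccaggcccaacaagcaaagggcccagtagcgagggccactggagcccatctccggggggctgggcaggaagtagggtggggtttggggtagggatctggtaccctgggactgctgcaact
VPREB1: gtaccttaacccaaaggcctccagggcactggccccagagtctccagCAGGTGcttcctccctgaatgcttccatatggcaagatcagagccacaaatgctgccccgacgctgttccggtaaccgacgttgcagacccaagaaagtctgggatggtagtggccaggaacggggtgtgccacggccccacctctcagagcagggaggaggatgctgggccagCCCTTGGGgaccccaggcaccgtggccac
VPREB3: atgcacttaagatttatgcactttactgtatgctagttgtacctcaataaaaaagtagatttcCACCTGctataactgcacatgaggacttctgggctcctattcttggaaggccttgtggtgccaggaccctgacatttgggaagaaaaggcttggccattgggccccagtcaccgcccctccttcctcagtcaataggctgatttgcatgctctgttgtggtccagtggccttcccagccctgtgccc
IGLL1: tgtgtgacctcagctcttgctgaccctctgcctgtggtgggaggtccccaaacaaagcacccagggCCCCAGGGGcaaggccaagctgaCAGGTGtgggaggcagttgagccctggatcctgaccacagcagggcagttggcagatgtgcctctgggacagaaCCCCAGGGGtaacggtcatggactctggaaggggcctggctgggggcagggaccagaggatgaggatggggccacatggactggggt
The E-box letters occurred once in each of the 4 sequences, and in 17.5% of 35116 RefSeq promoters of this length. The CCCNNGGG letters occurred in 2 of the 4, once in VPREB1 and in 2 overlapping pairs in IGLL1, and in 17.1% of all promoters, and no E-box overlapped such a match. These 2 motifs are the ones shown of 9 patterns looked at, and a match is a run of letters, not a measured site. TCF3 was at 10.56, with SEM at 9.92, NALM6 at 9.95 and REH at 10.39, and EBF1 was not analysed here.

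Downstream of the receptor, 17 measured kinases and adaptors held 2 genes higher in RS4;11 and 2 higher in SEM. BLNK, the adaptor that links the receptor's kinase SYK to calcium and lipid signals, was at 7.15, with SEM at 5.35, NALM6 at 10.66 and REH at 11.74. Both translocation lines lay far below NALM6 and REH, and the difference between them was 3.47-fold. RASGRP2, an exchange factor for RAP GTPases, was 4.53-fold higher in RS4;11. On the SEM side were BANK1, a scaffold protein of B-cell receptor signalling, at 6.75, with SEM at 10.51, NALM6 at 5.47 and REH at 5.24, and PRKCB, a protein kinase C that acts below the receptor, at 6.84, with SEM at 8.08, NALM6 at 9.40 and REH at 10.74. The tyrosine kinases of the receptor were under 2-fold apart, with SYK at 10.17 against 9.36 in SEM, BTK at 10.38 against 10.22 in SEM and LYN at 11.70 against 11.27 in SEM.

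The machinery that cuts immunoglobulin genes differed in its specific parts. RAG2, a subunit of the recombinase, was at 10.94, with SEM at 6.31, NALM6 at 11.86 and REH at 13.43, 24.8-fold higher in RS4;11 than in SEM. RAG1, the other subunit, was lower in both translocation lines than in NALM6 or REH and under 2-fold apart, at 7.24, with SEM at 6.33, NALM6 at 7.95 and REH at 8.97. DNTT, the transferase that adds bases at the joints, was at 6.88, with SEM at 5.11, NALM6 at 11.54 and REH at 12.43. SEM was the lowest of the 4 lines in all 3 genes. None of the 10 measured end-joining genes, which serve DNA repair in every cell, was 2-fold apart.

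Among 32 measured surface antigens, 7 were at least 2-fold higher in RS4;11 (21.9%, beside 2.48% of all genes) and 0 in SEM (beside 3.52%). The median difference was 0.23. CD38, an ectoenzyme of B-cell precursors and plasma cells, was at 11.54, with SEM at 6.35, NALM6 at 11.97 and REH at 11.90. CD24, a small anchored glycoprotein of B-cell precursors, was at 10.50, with SEM at 6.33, NALM6 at 12.49 and REH at 12.19. In both genes SEM stood alone below the other lines, and the difference was 5.19 for CD38 and 4.17 for CD24. CD9, a tetraspanin of precursor B cells, repeated that order with 11.56, with SEM at 8.53, NALM6 at 11.57 and REH at 11.61. CD180, a relative of the Toll-like receptors, did not: SEM and REH were both low, at 6.97 and 5.82, against 9.90 in RS4;11 and 10.37 in NALM6. PTPRC (CD45), the phosphatase of all white blood cells, was at 11.65, with SEM at 9.35, NALM6 at 8.45 and REH at 10.48, with RS4;11 highest and NALM6 lowest. FCRLA and CD72 were 2.42-fold and 2.36-fold higher in RS4;11. Of 13 antigens of mature B cells, only 1, FCRLA, was 2-fold apart.

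Transcription factors of the B lineage differed more often than any other list, counting both directions. Of 31, 10 were higher in RS4;11 (32.3%, beside 2.48% of all genes) and 3 in SEM (9.68%, beside 3.52%). The median difference was 0.55. BACH2, a repressor that holds precursors in the B lineage, was at 9.27, with SEM at 6.52, NALM6 at 11.01 and REH at 10.70. AFF3, a relative of the fusion partner AFF1, was at 10.17, with SEM at 7.44, NALM6 at 10.69 and REH at 8.17. POU2AF1, a coactivator at immunoglobulin promoters, was at 8.56, with SEM at 6.54, NALM6 at 9.08 and REH at 9.70. For BACH2, AFF3 and POU2AF1 alike, SEM was the lowest of the 4 lines. IKZF1 (Ikaros), a zinc finger factor needed for lymphoid development, was at 11.57, with SEM at 10.05, NALM6 at 10.99 and REH at 11.37, and FOXO1, which drives RAG transcription, differed by 1.16 and was likewise lowest in SEM. SOX4 and ETS1 were 3.30-fold and 2.84-fold higher in RS4;11. BCL6 and IRF4, factors of the pre-B and later stages, were 3.37-fold and 2.28-fold higher in RS4;11, but NALM6 was lowest for BCL6, at 7.32, and REH for IRF4, at 5.67. SPIB, an ETS factor, was highest in RS4;11, at 8.01, against 6.62 in SEM, 6.67 in NALM6 and 5.78 in REH.

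The 3 factors higher in SEM included ID2, an inhibitor of E proteins, at 7.42, with SEM at 9.85, NALM6 at 7.29 and REH at 7.43. IRF8, which serves both B-cell and myeloid development, was at 8.47, with SEM at 10.09, NALM6 at 5.75 and REH at 8.67. IKZF2 (Helios), an Ikaros relative, was at 9.74, with SEM at 10.86, NALM6 at 11.44 and REH at 9.69. SEM was the highest line for ID2 and IRF8, and NALM6 for IKZF2. IKZF3 (Aiolos), a further Ikaros relative, was under 2-fold apart and high in NALM6 only, at 6.06, with SEM at 5.55, NALM6 at 10.02 and REH at 5.21. The MHC class II list, which serves antigen presentation, held 1 gene of 10 at 2-fold: HLA-DOB, at 5.67 against 6.85 in SEM, higher in SEM. Class II genes are near copies of each other, so that their values are uncertain one by one.

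**Figure D2:**
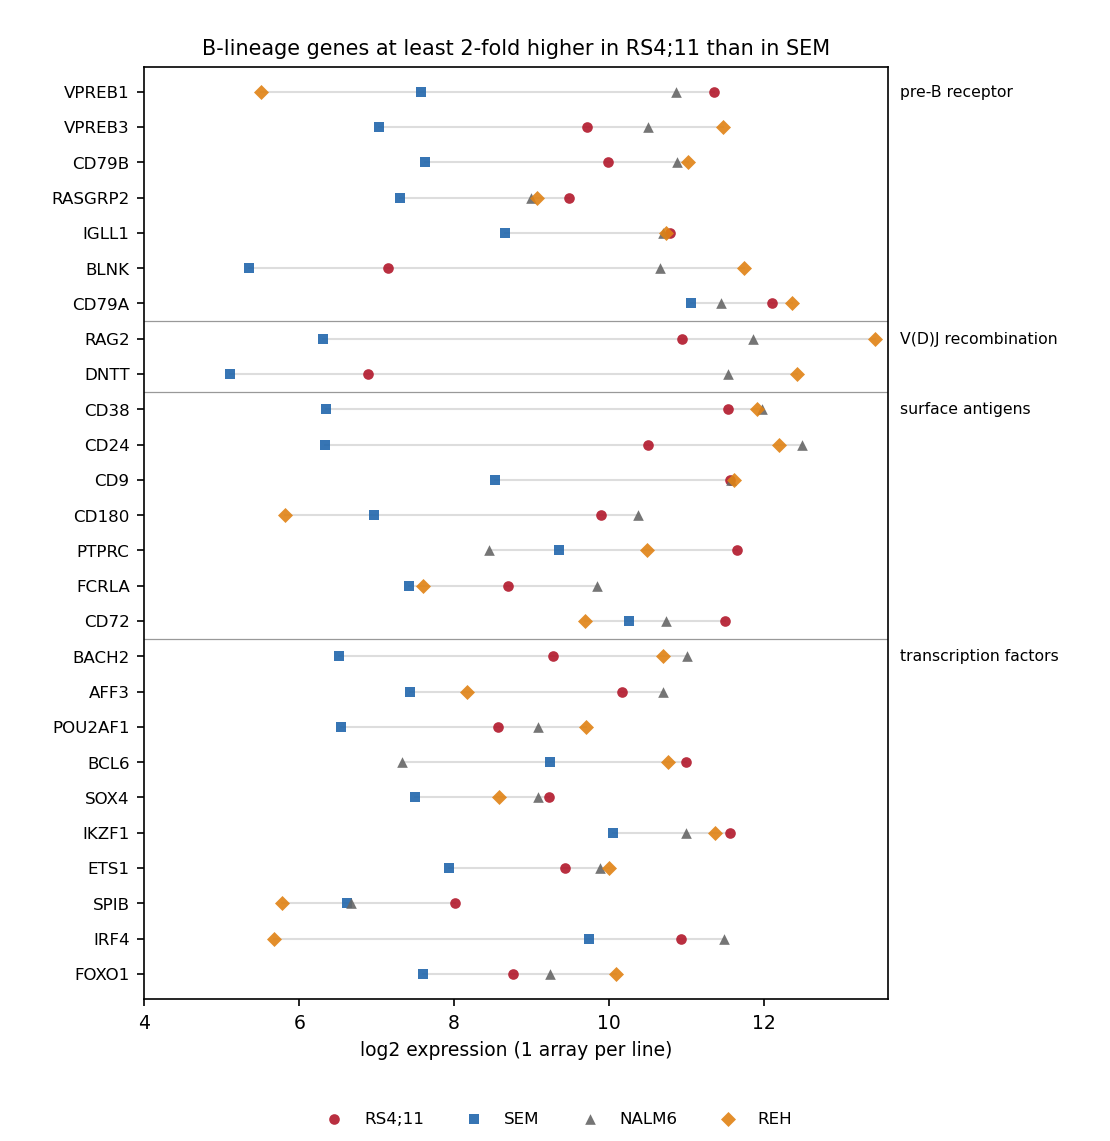
Log2 expression (horizontal axis, 1 array per line) of the 26 B-lineage genes at least 2-fold higher in RS4;11 than in SEM, grouped by role, with red circles for RS4;11, blue squares for SEM, grey triangles for NALM6 and orange diamonds for REH. In 15 of the 26 the SEM square lies at least 2-fold below all 3 other lines, as for CD38 at 6.35 against 11.54 to 11.97.

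Myeloid genes differed in both directions, more of them towards SEM. Of 85 measured genes, 16 were at least 2-fold higher in SEM (18.8%, beside 3.52% of all genes). In RS4;11 5 were higher (5.88%, beside 2.48%), while the median difference was -0.01. The median level of the 85 was 5.64 in RS4;11 and 5.82 in SEM, close to the array floor. Among the 36 whose mean over both lines lay above the median of all genes the median difference was -0.36. That mean lets in genes near the floor in RS4;11 that are high in SEM, such as ANPEP and VCAN. The value of -0.36 is therefore no separate evidence of a direction. In 11 of the 16, SEM was at least 2-fold above each of the other 3 lines. Outside these lists, F13A1 and IL1B, both also made by monocytes, were among the largest differences in the other direction, 41.7-fold and 63.9-fold.

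Of 13 myeloid transcription factors, 3 were higher in SEM and 0 in RS4;11. CEBPA, the factor that starts granulocyte and monocyte development, was at 5.91, with SEM at 8.43, NALM6 at 5.29 and REH at 5.24, so that SEM stood 5.71-fold above RS4;11. EGR1, an early growth response factor that also serves monocytes, was at 6.83, with SEM at 8.71, NALM6 at 6.34 and REH at 6.47, and BATF3, a factor of dendritic cells, was at 6.30, with SEM at 8.01, NALM6 at 6.25 and REH at 6.61. SPI1 (PU.1), needed by both myeloid and B cells, showed no such gap, with a difference of 0.03.

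Receptors and antigens were divided between the lines, with 6 of 36 higher in SEM and 5 in RS4;11. ANPEP (CD13), a peptidase used as a myeloid marker in leukaemia diagnosis, was at 5.48, with SEM at 10.93, NALM6 at 5.56 and REH at 5.67. CD86, a co-stimulatory molecule of antigen-presenting cells, was at 5.01, with SEM at 8.46, NALM6 at 5.05 and REH at 5.01. For both genes the 3 other lines lay together near the floor and SEM far above them. CSF1R, the receptor for macrophage colony-stimulating factor, was at 5.88, with SEM at 7.69, NALM6 at 5.53 and REH at 5.66. IL3RA, the alpha chain of the interleukin-3 receptor, was at 5.71, with SEM at 7.46, NALM6 at 7.15 and REH at 5.39, with NALM6 close to SEM. CD68 and CD300A were 2.52-fold and 2.23-fold higher in SEM. The genes on the RS4;11 side were TLR4, the receptor for bacterial lipopolysaccharide, at 7.56, with SEM at 5.85, NALM6 at 8.95 and REH at 4.83, FCGR2A, an Fc receptor, 2.36-fold higher, and 3 leukocyte immunoglobulin-like receptors. Of those, LILRB1 was at 7.35, with SEM at 5.13, NALM6 at 5.74 and REH at 5.84 and LILRA2 at 9.81, with SEM at 7.88, NALM6 at 8.56 and REH at 10.73. LILRB2 was 2.70-fold higher in RS4;11. The LILR genes are close copies, so that their probe sets may read each other.

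Among 36 effector genes, 7 were higher in SEM and 0 in RS4;11. VCAN, a proteoglycan of monocytes, was at 4.47, with SEM at 9.76, NALM6 at 4.47 and REH at 4.37, 39.1-fold higher in SEM. LGALS1 (galectin-1) was at 10.14, with SEM at 11.85, NALM6 at 6.87 and REH at 9.23. ANXA2 was 2.39-fold and the lysosomal protease CTSZ 2.57-fold higher in SEM. The leukotriene genes followed another order. ALOX5AP, the partner of 5-lipoxygenase, was at 8.56, with SEM at 10.43, NALM6 at 10.84 and REH at 10.51, and ALOX5 itself was at 5.20, with SEM at 6.47, NALM6 at 10.22 and REH at 11.02, so that RS4;11 was low and the lines without the translocation were the highest. Several genes that define mature myeloid cells stayed near the floor in both lines. The granule enzyme MPO was at 4.78 against 4.79 in SEM, CD14 at 4.59 against 4.64 in SEM, the receptor CSF3R at 4.48 against 4.46 in SEM and the integrin chain ITGAM (CD11b) at 5.28 against 5.10 in SEM. The granule protease ELANE was at 6.03 against 5.82 in SEM, and lysozyme (LYZ) was well above the floor and close in both, at 8.27 against 8.50 in SEM. CD33 was not analysed here.

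**Figure D3:**
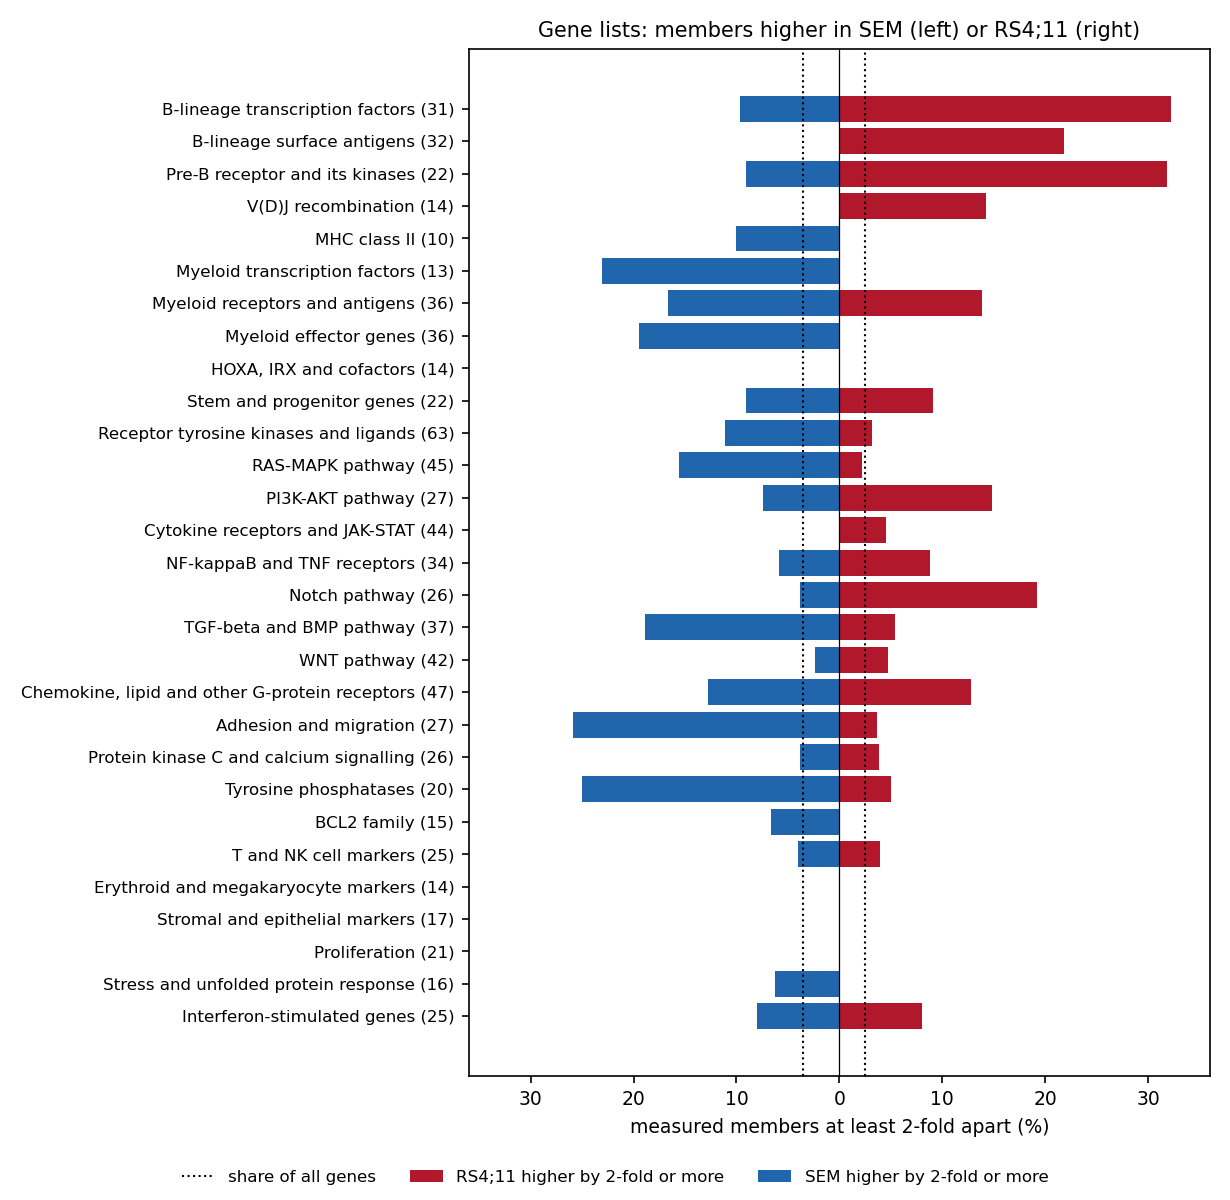
Share of measured members of each gene list (number in brackets) at least 2-fold higher in SEM (blue, left) or RS4;11 (red, right), in percent, with dotted lines at the shares of all genes (3.52% and 2.48%). The bars of the B-lineage transcription factors, the pre-B receptor and the B-lineage surface antigens reach farthest to the right, and the adhesion, tyrosine phosphatase and myeloid transcription factor bars farthest to the left.

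Signalling genes as a whole were less one-sided. The 11 lists held 411 different measured genes, with a median difference of -0.03. Of these, 29 were at least 2-fold higher in RS4;11 (7.06%) and 39 in SEM (9.49%). Both shares lay above those of all genes, 2.48% and 3.52%. Of 44 kinase receptors, 6 were at least 2-fold higher in SEM and 1 in RS4;11, while the median difference was 0.02 and 25 of the 44 were above 0. FLT3, a receptor of early progenitors that is abundant in leukaemias with a rearranged KMT2A, was at 11.34, with SEM at 12.82, NALM6 at 8.46 and REH at 10.35, high in both translocation lines and 2.80-fold higher in SEM. FGFR1 was at 5.90, with SEM at 8.33, NALM6 at 8.45 and REH at 9.98. PTK7 and EPHB3 were 2.68-fold and 2.48-fold higher in SEM, as was RYK with a difference of -1.32, and ERBB2 was 3.49-fold higher in RS4;11. Of 19 ligands, PDGFD was higher in SEM (2.54-fold) and EFNB2 in RS4;11 (2.52-fold).

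The RAS-MAPK list divided by role. None of 22 measured core members was 2-fold apart. Of 23 feedback inhibitors and transcriptional targets 7 were higher in SEM (30.4%, beside 3.52% of all genes) and 1 in RS4;11 (4.35%, beside 2.48%). The median difference of the 23 was -0.42. SPRY4, a Sprouty protein induced by and acting against the cascade, was at 5.09, with SEM at 8.92, NALM6 at 4.76 and REH at 4.78. DUSP6, the phosphatase that switches off ERK, was at 5.79, with SEM at 8.45, NALM6 at 8.48 and REH at 10.79. SPRY4 was high in SEM alone, while DUSP6 was low in RS4;11 alone, so that NALM6 and REH lay nearer RS4;11 for the former and nearer SEM for the latter. SPRY2 was at 9.25, with SEM at 10.52, NALM6 at 8.95 and REH at 8.94 and SPRED2, another brake on RAF activation, at 8.35, with SEM at 9.81, NALM6 at 9.37 and REH at 8.67. Among targets, the ETS factors ETV1 and ETV4 were 4.48-fold and 3.26-fold higher in SEM, and FOS was at 5.49, with SEM at 7.07, NALM6 at 5.56 and REH at 5.84. The exception was DUSP1, a phosphatase of stress kinases, which was 2.38-fold higher in RS4;11.

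In the TGF-beta and BMP pathway 7 of 37 genes were higher in SEM (18.9%, beside 3.52% of all genes), among them 2 ligands and 3 receptors. The 2 genes higher in RS4;11 (5.41%, beside 2.48%) were both SMAD signal carriers. The median difference was -0.11. TGFB1, the main ligand of white blood cells, was at 5.95, with SEM at 9.28, NALM6 at 8.79 and REH at 8.36. BMP4, a bone morphogenetic protein, was at 4.69, with SEM at 7.58, NALM6 at 4.61 and REH at 4.62. RS4;11 was lowest for TGFB1, and SEM alone was above the floor for BMP4. The receptors ACVR2A, ACVR2B and BMPR2 were 4.85-fold, 4.20-fold and 3.16-fold higher in SEM. ID1, a classical BMP target, was at 4.45, with SEM at 7.33, NALM6 at 4.55 and REH at 4.87, and SKI, a corepressor of SMAD proteins, differed by -3.53. SMAD3, which carries TGF-beta signals, was at 9.05, with SEM at 6.99, NALM6 at 5.65 and REH at 10.10, and SMAD9, which carries BMP signals, at 10.67, with SEM at 8.37, NALM6 at 5.40 and REH at 5.25, both higher in RS4;11.

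Phosphoinositide signalling held 4 genes of 27 higher in RS4;11 (14.8%, beside 2.48% of all genes) and 2 in SEM (7.41%, beside 3.52%). Their median difference was 0.06. The RS4;11 side had the leukocyte catalytic subunits PIK3CD and PIK3CG (2.07-fold and 2.14-fold), the regulatory subunit PIK3R5 (2.88-fold) and the lipid phosphatase INPP5D (SHIP1, 2.09-fold). PIK3R3, another regulatory subunit, was at 6.73, with SEM at 9.78, NALM6 at 9.18 and REH at 9.76, and SGK1, a kinase of the AKT type, was at 5.48, with SEM at 8.10, NALM6 at 5.44 and REH at 6.10. PLCB1, a phospholipase C that makes second messengers, was outside the lists but among the leading differences, at 11.47, with SEM at 6.12, NALM6 at 9.90 and REH at 8.88, which left SEM the low line.

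Cytokine receptors and the JAK-STAT pathway differed little, with 2 of 44 genes higher in RS4;11 and 0 in SEM, a share near the 2.48% of all genes. IL7R, the receptor for the main growth factor of B-cell precursors, was at 12.01, with SEM at 10.84, NALM6 at 12.10 and REH at 12.42, and SOCS2, a feedback inhibitor, at 7.07, with SEM at 5.85, NALM6 at 10.23 and REH at 10.12. Of 34 genes of the NF-kappaB list, 3 were higher in RS4;11 (8.82%, beside 2.48% of all genes) and 2 in SEM (5.88%, beside 3.52%). The inhibitors NFKBIA and TNFAIP3, which are also targets of the pathway, were 2.13-fold and 2.73-fold higher in RS4;11. The TNF family members CD70 (2.02-fold, RS4;11 higher), TNFRSF1B and TNFRSF10B (2.61-fold and 3.77-fold, SEM higher) were divided. Of 26 Notch genes, 5 were higher in RS4;11 (19.2%, beside 2.48% of all genes) and 1 in SEM (3.85%, beside 3.52%). Their median difference was 0.04. MFNG, a sugar transferase that modifies Notch receptors, was at 8.43, with SEM at 5.02, NALM6 at 10.15 and REH at 9.24, and DTX4, a regulator of Notch, at 8.76, with SEM at 6.46, NALM6 at 7.36 and REH at 8.94. NOTCH2 was at 9.56, with SEM at 8.31, NALM6 at 9.35 and REH at 9.81. DLL3 and HEY2 were 3.21-fold and 2.09-fold higher in RS4;11, and the ligand DLL1 was 2.91-fold higher in SEM. Of 42 WNT genes, FZD6 and LGR6 were higher in RS4;11 (4.76%) and FZD3 in SEM (2.38%), beside 2.48% and 3.52% of all genes.

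Receptors that couple to G proteins and their RGS brakes were mostly under 2-fold apart. Of 35 receptors, with a median difference of -0.04, 5 were higher in RS4;11 and 2 in SEM. Of 12 RGS genes on the list the counts were 1 (RGS19, 2.01-fold) and 4, with a median of -0.42, beside a median of -0.04 over all 23 measured RGS genes. F2R, the thrombin receptor, was at 9.03, with SEM at 5.60, NALM6 at 5.24 and REH at 9.01. CXCR4, the homing receptor for bone marrow, was at 10.71, with SEM at 9.54, NALM6 at 11.82 and REH at 11.39. HRH2, GPR18 and PTGER4 were 4.41-fold, 4.59-fold and 2.34-fold higher in RS4;11, and the lysophosphatidic acid receptors LPAR1 and LPAR6 4.99-fold and 2.10-fold higher in SEM. RGS2 differed by -3.58 and was highest in SEM, while RGS1, RGS13 and RGS16 were 2.41-fold, 2.92-fold and 2.30-fold higher in SEM.

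Adhesion was the list with the largest share on the SEM side, 7 of 27 genes (25.9%, beside 3.52% of all genes). In RS4;11 1 was higher (3.70%, beside 2.48%), and the median difference was -0.39. ITGA2, a collagen receptor subunit, was at 4.49, with SEM at 9.03, NALM6 at 4.53 and REH at 4.42. ITGA6, a laminin receptor subunit, was 15.2-fold higher in SEM, with 7.89 in NALM6. ITGB7, which pairs with alpha 4 for homing to the gut, was at 6.22, with SEM at 10.01, NALM6 at 7.21 and REH at 6.04. For ITGA2 the 3 other lines were at the floor, whereas for ITGA6 the line that stood apart was RS4;11. ITGAL and ITGB2, which together form LFA-1, were 9.93-fold and 2.10-fold higher in SEM. PECAM1 (CD31) was at 6.04, with SEM at 9.51, NALM6 at 4.96 and REH at 5.08, and its difference of -3.47 was -2.02 by its other probe set. CD82, a tetraspanin, was 2.05-fold higher in RS4;11. Over all 29 measured integrin subunits, a family counted after these values were seen, 8 were higher in SEM and 0 in RS4;11. The 8 make up 27.6%, beside 3.52% of all genes, and the median difference of the family was -0.14.

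**Figure D4:**
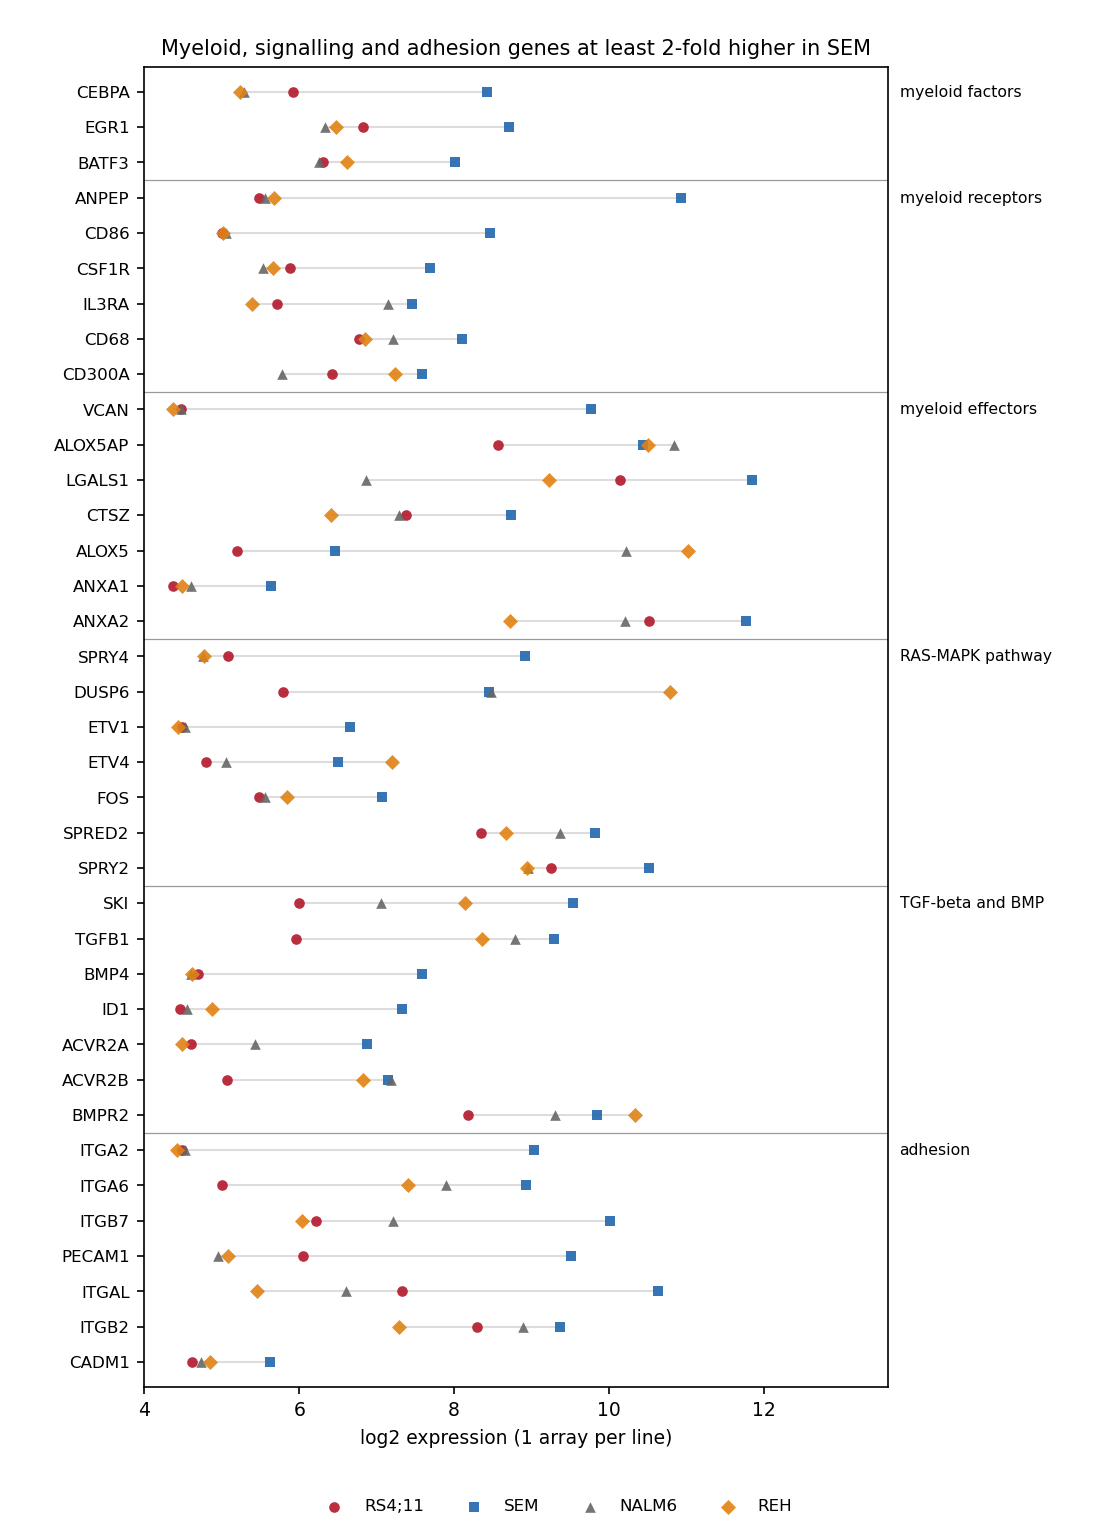
Log2 expression (horizontal axis, 1 array per line) of myeloid, RAS-MAPK, TGF-beta and BMP, and adhesion genes at least 2-fold higher in SEM than in RS4;11, with red circles for RS4;11, blue squares for SEM, grey triangles for NALM6 and orange diamonds for REH. For genes such as ANPEP, VCAN, SPRY4 and ITGA2 the SEM square stands apart from 3 overlapping points, and for DUSP6, TGFB1 and ITGA6 the RS4;11 circle lies below the other 3.

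Among tyrosine phosphatases, 5 of 20 were higher in SEM and 1 in RS4;11. PTPN13 was at 6.15, with SEM at 9.03, NALM6 at 4.92 and REH at 8.86, and PTPRG, PTPN14, PTPRK and PTPN22 were 6.67-fold, 6.69-fold, 2.43-fold and 2.41-fold higher in SEM. PTPRE was 2.60-fold higher in RS4;11. In the protein kinase C and calcium list CAMK2D was 2.07-fold higher in RS4;11 and PDE3B, which breaks down cyclic AMP, 8.19-fold higher in SEM. Of 15 genes of the BCL2 family, which controls cell death, only BMF, a death-promoting member, was 2-fold apart, at 6.87, with SEM at 8.89, NALM6 at 7.29 and REH at 6.17. BCL2 was at 10.27 against 10.48 in SEM and MCL1 at 10.12 against 10.55 in SEM.

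Homeobox genes and their partners, the best known targets of KMT2A fusions, were close in both lines: none of 14 measured genes of the HOXA, IRX and cofactor list was 2-fold apart. MEIS1, the homeobox cofactor of KMT2A-rearranged leukaemia, was at 11.30, with SEM at 11.20, NALM6 at 4.92 and REH at 4.82, and RUNX2 was at 10.80, with SEM at 11.10, NALM6 at 6.10 and REH at 5.43. Both genes were high in the 2 translocation lines and low in NALM6 and REH. Of the HOXA cluster only HOXA2 was measured alone, and the other HOXA genes were not analysed here. HOXA2 did not share that order, at 7.72, with SEM at 7.30, NALM6 at 5.32 and REH at 8.19, the highest. Of 22 stem and progenitor genes, 2 were higher in each line (9.09%, beside 2.48% of all genes for RS4;11 and 3.52% for SEM). IGF2BP2, an RNA-binding protein of fetal tissue and progenitors, was at 10.10, with SEM at 5.05, NALM6 at 4.82 and REH at 5.71, and MSI2, an RNA-binding protein of stem cells, was 2.12-fold higher in RS4;11. ANGPT1, a ligand made by progenitors, was 3.21-fold higher in SEM, and FLT3 is the fourth.

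Lists for other cell types and for cell state showed little. Of 25 T and NK cell markers, NKG7 was 3.62-fold higher in RS4;11 and GATA3 2.23-fold higher in SEM. The median level of the list was 4.97 in RS4;11 and 5.01 in SEM, at the array floor, and the T-cell receptor chains CD3D, CD3E and CD3G were at 4.87, 4.97 and 4.82 against 4.72, 4.93 and 4.58 in SEM. None of 14 erythroid and megakaryocyte markers or 17 stromal and epithelial markers was 2-fold apart, with median levels of 5.03 and 4.93 in RS4;11 and 4.97 and 4.96 in SEM. None of 21 proliferation genes was 2-fold apart either, and their median level was 11.2 in RS4;11 and 11.3 in SEM. Of 16 stress genes 1 was, ASNS, which makes asparagine, at 6.57, with SEM at 8.82, NALM6 at 9.17 and REH at 9.34. Interferon-stimulated genes were divided, with OAS2 and MX2 higher in RS4;11 and IFITM3 and GBP2 in SEM. GBP2 differed by -1.59, or -0.98 by its other probe set.

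The largest differences lay mostly outside these lists. GTSF1, a zinc finger protein of the germline small RNA pathway, was at 11.99, with SEM at 4.79, NALM6 at 4.56 and REH at 4.75, 147-fold higher in RS4;11. PRL, the hormone prolactin, was at 11.89, with SEM at 4.94, NALM6 at 4.90 and REH at 4.78, and F13A1, a clotting factor subunit also made by monocytes, at 10.18, with SEM at 4.79, NALM6 at 4.88 and REH at 4.91. The 3 other lines were at the floor for all 3 genes. IL1B, the cytokine interleukin-1 beta, was instead low in SEM alone, at 10.84, with SEM at 4.84, NALM6 at 9.60 and REH at 10.01, as was NRN1 (neuritin), at 10.80, with SEM at 5.23, NALM6 at 9.87 and REH at 12.96. CTPS2, an enzyme of cytidine nucleotide synthesis, was shared with NALM6, at 9.69, with SEM at 4.64, NALM6 at 9.54 and REH at 4.62, and DNAJC15, a mitochondrial co-chaperone, with REH, at 9.95, with SEM at 5.07, NALM6 at 4.90 and REH at 10.01. ADGRG7, an adhesion G-protein-coupled receptor, was 38.3-fold, NEGR1, a neuronal adhesion molecule, 28.8-fold, and GCSAM, a germinal centre signalling protein, 25.3-fold higher in RS4;11.

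On the SEM side, LAPTM4B, a lysosomal membrane protein, was at 4.82, with SEM at 12.24, NALM6 at 6.89 and REH at 5.08, 171-fold higher than in RS4;11. MED12L, a relative of a Mediator subunit, NETO2, a partner of glutamate receptors, and EMP1, an epithelial membrane protein, were 90.1-fold, 79.7-fold and 60.1-fold higher in SEM, and all 3 were near the floor in the other 3 lines. PLXDC2, ROBO1, ADGRL3 and NECTIN3, membrane proteins of cell contact and guidance, were 67.2-fold, 50.1-fold, 46.8-fold and 42.0-fold higher in SEM. APP, the amyloid precursor protein, was at 5.39, with SEM at 11.59, NALM6 at 11.87 and REH at 12.16, so that here RS4;11 stood apart from the 3 other lines.

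The values of NALM6 and REH place each difference. Of the 248 genes at least 4-fold higher in SEM, both were nearer RS4;11 in 143 (57.7%), both nearer SEM in 54 and 1 nearer each in 51. Of the 138 genes at least 4-fold higher in RS4;11, both were nearer RS4;11 in 49 and nearer SEM in 48, with 41 divided. For RS4;11 the shares were near equal (35.5% and 34.8%), whereas for SEM the lines without the translocation lay nearer RS4;11 in most. The difference in these shares was not tested.

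Some of these differences lay side by side in the genome. Over 9194 genes above the median level, the running median of 25 neighbours, in RefSeq order, lay between -0.18 and 0.37 in 95% of 8642 windows. Stretches past a running median of 0.4 in size lay on chromosomes 7, 8, 13 and 22, and chromosomes 8 and 13, which held the longest, were singled out after their values were seen. On chromosome 8, the 108 genes from its start to HGSNAT had a median of -0.77, with 102 of 108 lower in RS4;11, and the 206 genes after HGSNAT a median of 0.32, with 176 higher in RS4;11. Set against NALM6 and REH, the median difference of RS4;11 was -0.69 and -0.68 up to HGSNAT and 0.40 and 0.47 after it. For SEM it was 0.04 and 0.03, then 0.10 and 0.14. FGFR1, FZD3 and TNFRSF10B lie in the first stretch, and how far they move with it was not tested.

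On chromosome 13 the shift was in SEM. Its 167 genes had a median difference of 0.58, with 139 higher in RS4;11, and the median difference from NALM6 and REH was -0.59 and -0.54 for SEM, against -0.05 and 0.00 for RS4;11. The longest stretch, from ALG5 to ANKRD10, held 105 genes with a median of 0.67. Around FLT3 the direction turned. All 10 genes from USP12 to PAN3, FLT3 included, were higher in SEM, ATP5F1EP2 by only 0.01 in size. Their median was -0.59, and SEM was above NALM6 and REH there by medians of 0.51 and 0.64. The run was cut where the direction changes, once values were known, so that its single direction follows from that choice. POLR1D was at 10.46, with SEM at 11.31, NALM6 at 10.55 and REH at 10.86, and MTIF3 at 8.81, with SEM at 9.68, NALM6 at 9.24 and REH at 9.32. FLT3, at -1.49, differed most of the 10 genes of this run. Farther along the chromosome, ALOX5AP differed by -1.87 and CCNA1 by -5.20. SMAD9, FOXO1 and GPR18, higher in RS4;11, and SPRY2, LPAR6 and ALOX5AP, higher in SEM, also lie on this chromosome.

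A stretch of chromosome 9 showed signal in SEM alone. HACD4, a fatty acid enzyme, was at 4.69, with SEM at 10.35, NALM6 at 4.60 and REH at 4.57. KLHL9, an adaptor of a ubiquitin ligase, was at 4.78, with SEM at 10.01, NALM6 at 4.82 and REH at 4.86. MTAP, a methionine salvage enzyme, was at 4.67, with SEM at 9.29, NALM6 at 4.65 and REH at 4.60, and CDKN2A, the cell cycle inhibitor p16, at 4.90, with SEM at 9.35, NALM6 at 4.69 and REH at 4.66. FOCAD was at 4.86, with SEM at 7.72, NALM6 at 4.60 and REH at 4.78. Among genes on either side of the stretch, RPS6 and PLAA were alike in all 4 lines. RPS6 was at 13.09, with SEM at 13.04, NALM6 at 12.94 and REH at 13.06. PLAA was at 9.96, with SEM at 10.10, NALM6 at 9.82 and REH at 9.73. IFT74, the next gene after PLAA, was lower in REH, at 8.65, with SEM at 8.86, NALM6 at 8.21 and REH at 6.79. CDKN2B was at the floor in all 4 lines, 4.84, with SEM at 4.93, NALM6 at 4.73 and REH at 4.70, so that no difference was detectable there. DNA copy number was not measured in these data, and its part in the shifts on chromosomes 8, 9 and 13 was not tested.

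**Figure D5:**
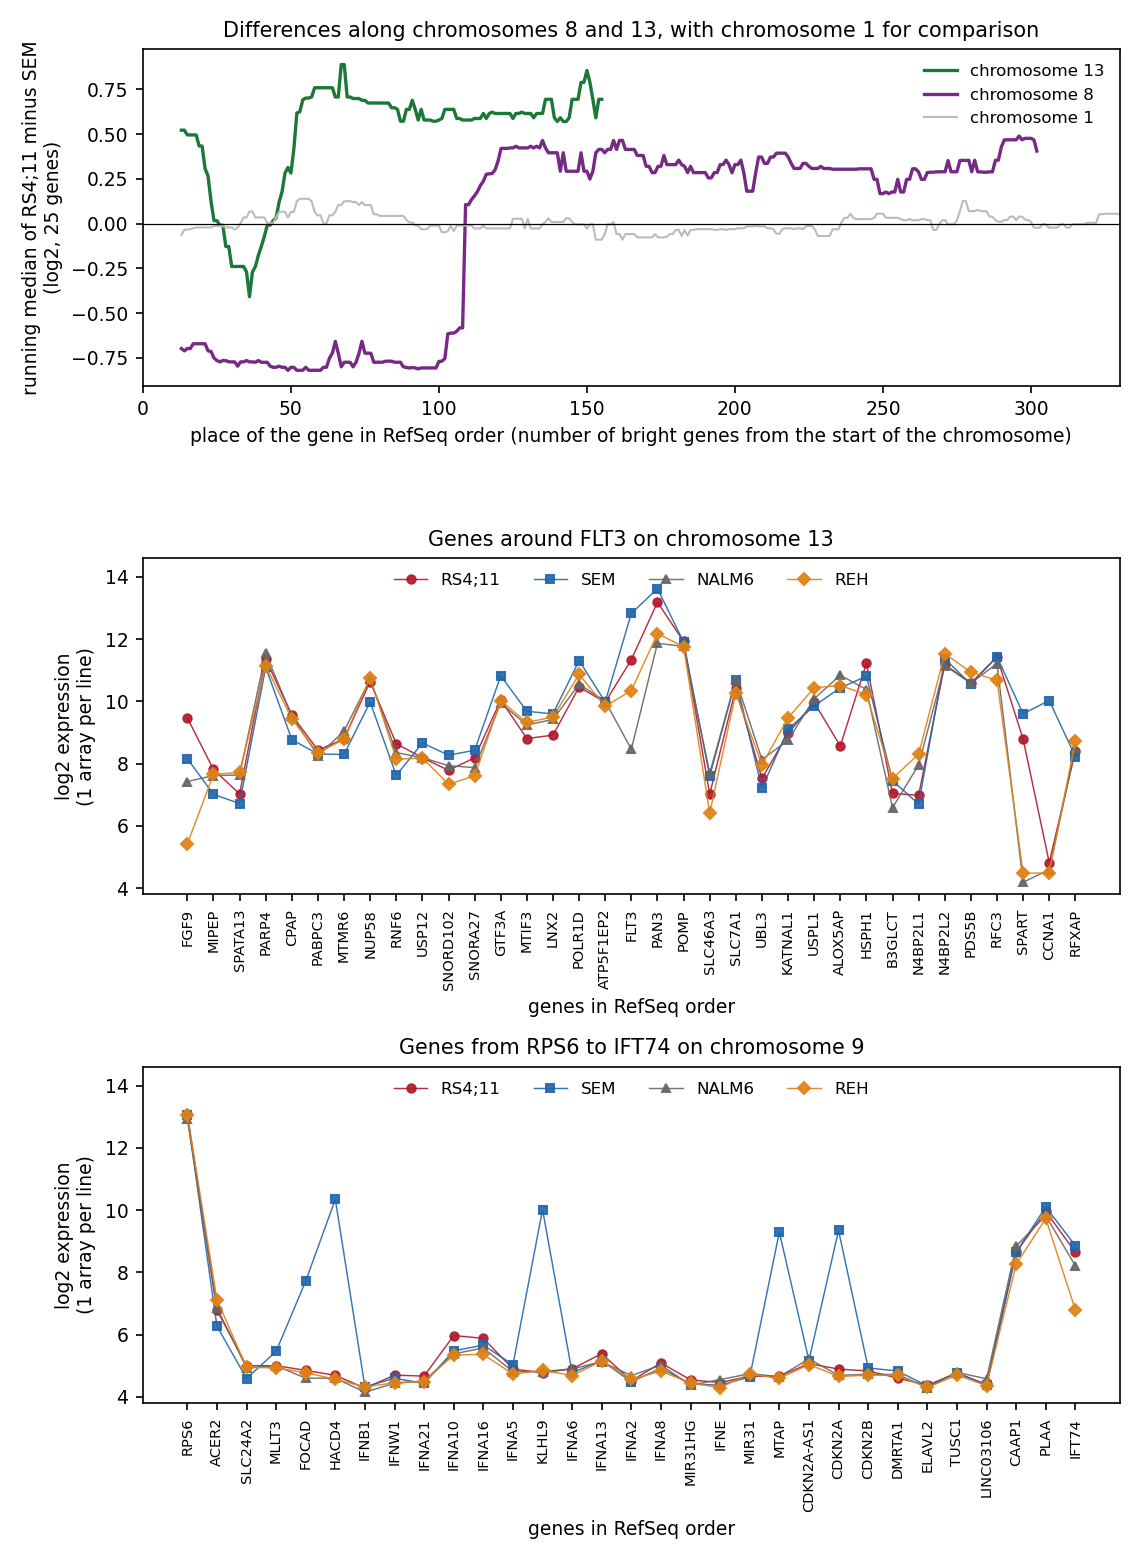
Top, running median of RS4;11 minus SEM over 25 genes (log2, vertical axis) by place of the gene in RefSeq order (horizontal axis) on chromosomes 13 (green), 8 (purple) and, for comparison, 1 (grey). Middle and bottom, log2 expression of genes around FLT3 on chromosome 13 and from RPS6 to IFT74 on chromosome 9, with 1 array per line. Chromosome 8 changes from about -0.77 to 0.32 at HGSNAT, chromosome 13 is above 0 except near FLT3, and HACD4, KLHL9, MTAP and CDKN2A are high in SEM alone.

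The largest single difference belonged to a cluster of small nucleolar RNAs on chromosome 15. SNORD116-15 was at 4.70, with SEM at 12.58, NALM6 at 12.78 and REH at 12.90, and 15 of 20 measured SNORD116 copies were at least 2-fold higher in SEM, with a median difference of -1.97. The copies are near-identical in sequence and may read each other, so that the 15 are not separate findings. Of 95 other SNORD genes, 0 were 2-fold apart. SNORD116 comes from the SNRPN locus, which is active on the chromosome inherited from the father. RS4;11 was at the floor, and SEM, NALM6 and REH were all high, and the family was picked out after its values were seen.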

How the data were processed

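The deposited log2 values are the authors' RMA output (background-corrected, quantile-normalized, summarised by probe set), and Partek is named too, per the submitters' processing notes. Versions, and the build of the array annotation, were not given in the sources used here. A log2 scale was inferred from the range of the values, and the quantile step removes array-wide differences. The table has 32968 probe sets. A single gene symbol was listed for 19310, several for 1752 and none for 11906, and only the first kind was used. Of these, 19279 matched the RefSeq table (GRCh38.p14) by Entrez ID. Each of 18377 genes is represented by its probe set with the highest mean over both arrays.

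Differences are RS4;11 minus SEM. With 1 array per line there is no test, and genes at least 2-fold apart are counted. The members and the 29 gene lists (797 of 868 genes measured) were chosen with earlier results of these data known. Genes named are KMT2A and AFF1, the 15 largest differences per direction among genes whose higher value lay above the median of all genes, up to 6 list members per direction at 2-fold, and fixed cell type markers. Families, chromosome stretches with their genes, and other genes under 2-fold apart were picked out once values were known. A few genes that meet these criteria are not analysed here. The counting was tested on simulated data. Alternatives were repeated quantile normalization, centring on the array median, the mean or the dimmest probe set per gene, leaving out dim genes, and 4-fold or 1.5-fold limits. Protein-coding genes alone, and genes outside chromosomes 8 and 13, were added after seeing the data. The work used Python 3.11.15 with numpy 2.4.6, pandas 2.3.3 and, for plots, matplotlib 3.10.9. The number of arrays limits the precision.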

Additional observations from a re-analysis of the deposited data

How the results depend on the processing

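The counts at 2-fold, 456 genes higher in RS4;11 and 646 higher in SEM, kept within 1.5 times their size under another quantile normalization, median centring, other choices of probe set, protein-coding genes alone and genes outside chromosomes 8 and 13 (445 to 462 or, in the last 2 settings, 423 and 410 for RS4;11; 579 to 652 for SEM). Removing dim genes left 335 and 375. At 4-fold the counts were 138 and 248, and at 1.5-fold 1094 and 1176. The median difference of the B-lineage lists went from 0.32 to 0.44 without dim genes (74 genes left). That of the myeloid lists went from -0.01 to -0.36 (36 genes left). The filter used the mean of both lines, so that genes bright in 1 line only stay in, and why the medians moved was not tested. The median of the signalling lists stayed between -0.08 and -0.02. Of 156 named genes none changed direction, and only PECAM1 (-2.74 for the mean of its probe sets and -2.02 for the dimmest, against -3.47) and GBP2 (-1.29 and -0.98, against -1.59) moved by more than the spread between probe sets. Only 685 of 18377 genes had several probe sets. For all others the choice of probe set could change neither value nor count, so that agreement under those settings says little. No paired analysis was possible because each line has 1 array and no replicate number, and for the same reason no array could be left out. Without detection calls, how far a dim gene lies above background is not known.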

Other observations

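Zinc finger genes of the ZNF family, most of which encode repressors of transcription, held 35 of 493 members at least 2-fold higher in SEM (7.10%) and 10 higher in RS4;11 (2.03%), beside 3.52% and 2.48% of all genes. With the value of RS4;11 given first, ZNF528 was at 4.69, with SEM at 9.59, NALM6 at 6.83 and REH at 5.72. ZNF737 was at 8.43, with SEM at 12.25, NALM6 at 12.23 and REH at 12.22, so that RS4;11 was the line apart there. ZNF genes share sequence, and probe sets may read more than 1 of them. MicroRNA genes showed 3 of 139 higher in RS4;11 (2.16%) and 0 in SEM, and MIR221 had the largest difference, at 7.68, with SEM at 6.34, NALM6 at 6.67 and REH at 5.21.

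Some single immune receptor genes outside the lists were singled out after their values were seen. Of the 25 listed T and NK cell markers 1 was higher in each line, and the natural killer marker NKG7 was 3.62-fold higher in RS4;11. CLEC9A, a lectin of dendritic cells that take up dead cells, was at 4.80, with SEM at 8.97, NALM6 at 4.57 and REH at 4.54. KLRC3, a lectin-like receptor of natural killer cells, was at 4.83, with SEM at 8.18, NALM6 at 5.25 and REH at 4.77, and has close copies next to it. In the other direction, IL12RB2, a chain of the interleukin-12 receptor, was at 7.34, with SEM at 4.70, NALM6 at 4.88 and REH at 4.61.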
